A study of Mus musculus with 19 samples.

Results

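The guanylate-binding proteins (GBPs) are a family of large GTPases, and 10 of their genes, Gbp2 to Gbp11, were followed in mouse hepatocytes of 2 ages. They were taken by gene symbol from the 24537 genes of the deposited count table. All 10 were among the 12269 genes with enough counts to be tested. Poly(A) RNA was sequenced from hepatocytes isolated by perfusing the liver in successive steps, with 1 library for each of 19 male wild-type (WT) mice of the strain C57BL/6J. The 10 young mice were 5 months old and the 9 old mice were 24 months old, with no other treatment or allele named in the labels. The mice were killed on 2 cull days that lay 23 days apart, with 5 young and 5 old mice on the first day and 5 young and 4 old mice on the second. Each mouse is named by its library number, and each p-value measures the spread between mice as the labels define them.

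GBPs are made in most nucleated cells after exposure to interferons, most strongly interferon gamma. The signal runs from the interferon receptors through JAK kinases to transcription factors, among them the interferon regulatory factors, which bind short elements in the promoters of GBP genes. The proteins gather on the membranes of vacuoles that hold intracellular microbes and on free bacteria, act there together with the immunity-related GTPases, and help to open such compartments to inflammasome sensors. Some members carry a lipid anchor added by prenylation. In liver, resident macrophages, endothelial cells and hepatocytes can all express them. The design allowed the question of whether the transcripts of these genes differed between young and old hepatocyte preparations. In bulk RNA, a change in the number of cells of a type and a change in RNA per cell cannot be told apart.

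The members lay in 2 clusters on the mm10 mouse genome. On the plus strand of chromosome 3, in genomic order, were Gbp5 (142496934 to 142522344), Gbp7 (142530336 to 142550151), Gbp3 (142560052 to 142573212) and Gbp2 (142620663 to 142638008). On the minus strand of chromosome 5 were Gbp8 (105014153 to 105053561), Gbp9 (105078394 to 105110292), Gbp4 (105115767 to 105139586), Gbp10 (105215699 to 105239533), Gbp6 (105270702 to 105293699) and Gbp11 (105323026 to 105346476). Each gene had 11 exons except Gbp8, which had 10. RefSeq lists Gbp11 as a transcribed pseudogene. The remaining mouse gene of the chromosome 3 cluster, Gbp2b, lies between Gbp3 and Gbp2 and is treated here only as a neighbour.

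The members differ in how far their reads can be told apart. The coding sequences of Gbp6 and Gbp10 were identical at 1803 of 1833 aligned bases (98.4%). The next closest pairs were Gbp4 with Gbp11 (90.7%) and Gbp6 with Gbp9 (89.6%). With reads of 100 bases, 46.7% of the 100-base windows of the Gbp6 transcript also occurred in another GBP gene, and 57.0% of those of Gbp10. For each of the other 8 members the share was between 0% and 5.13%. The Gbp6 transcript compared had 2604 bases, whereas Gbp6 was counted over 4303 bases of exon, so its share does not cover all counted bases. How counts of Gbp6 and Gbp10 were divided is therefore uncertain, and the values of this pair are best read together. Exons of Gbp6 and Gbp10 also overlap the annotated gene Gm43302 on the same strand, and those of Gbp7 overlap Gm43802. Exons of Gbp4, Gbp8 and Gbp9 share 60 or 61 bases with each other.

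The promoters of the 4 chromosome 3 members are shown because the elements that carry the interferon signal are known from this kind of region. RefSeq promoter entries (build GRCm38.p6) matched these 4 genes, and Gbp4, Gbp6, Gbp8, Gbp9, Gbp10 and Gbp11 had no entry. Each line gives, 5′ to 3′ on the strand of the gene, the 200 bases before the start. Capitals mark matches to the core of the interferon-stimulated response element (GAAA, any 2 bases and GAAA, or on the other strand TTTC, any 2 bases and TTTC) or to the gamma-activated site (TTCNNNGAA, the same on both strands).
Gbp5, chr3:142496734-142496933: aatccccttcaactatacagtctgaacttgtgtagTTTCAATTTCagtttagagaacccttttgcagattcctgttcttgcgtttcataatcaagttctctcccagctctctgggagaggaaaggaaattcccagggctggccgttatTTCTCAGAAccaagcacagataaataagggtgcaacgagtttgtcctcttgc
Gbp7, chr3:142530136-142530335: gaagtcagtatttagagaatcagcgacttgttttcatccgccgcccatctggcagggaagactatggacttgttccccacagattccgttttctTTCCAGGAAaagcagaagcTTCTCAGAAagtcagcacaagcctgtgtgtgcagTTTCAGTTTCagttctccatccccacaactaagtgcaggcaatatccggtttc
Gbp3, chr3:142559844-142560043: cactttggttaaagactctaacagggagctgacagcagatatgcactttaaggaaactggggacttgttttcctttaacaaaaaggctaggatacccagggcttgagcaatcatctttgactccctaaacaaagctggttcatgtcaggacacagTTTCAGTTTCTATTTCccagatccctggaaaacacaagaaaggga
Gbp2, chr3:142620463-142620662: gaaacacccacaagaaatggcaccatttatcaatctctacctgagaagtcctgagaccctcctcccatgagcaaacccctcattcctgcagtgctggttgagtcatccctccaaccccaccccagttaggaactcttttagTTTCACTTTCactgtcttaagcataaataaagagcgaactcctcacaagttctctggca
All 4 windows held the response element core. Its first base lay at position -165 in Gbp5, -53 in Gbp7, -45 in Gbp3 and -59 in Gbp2, counting the base before the start as -1. Gbp3 had a match at -39 that overlaps the one at -45, and its other RefSeq start, at 142560356, had no match. Gamma-activated sites were matched in Gbp7 at -106 and -87 and in Gbp5 at -52 and, outside the printed window, at -245. Neither Gbp3 nor Gbp2 had those letters here. Over the 32851 mouse promoters in the table, taken from 250 bases before to 50 bases after the start, 3.44% held the response element core and 8.30% the gamma-activated site. A match describes letters only.

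Library totals over genes ran from 17381439 to 20287628.5 counts, so depth was similar throughout. Old mouse 1187 of the first cull day stood apart, with the highest macrophage marker score of all libraries (the mean over 12 markers of log2 CPM, counts scaled by library size: 7.64, against 2.12 to 5.70 in the other old mice and 2.51 to 4.90 in young mice). Old mouse 1183 had the lowest, at 2.12. Young mice 1184, 1186 and 1188 also stood apart, with albumin (Alb) at 5.82% to 6.29% of counts, against 10.2% to 11.1% in the other young mice and 10.2% to 15.4% in old mice. Hepatocyte markers were abundant in every library, at a summed level of 83130 to 188790 CPM over 6 genes, most of it Alb. These 6 split by age in edgeR, with Alb (log2 fold change 0.47) and Apoa1 (0.41) called higher in old mice, Cps1 (-0.64) and Hnf4a (-0.30) called lower, and Ttr (0.20) and Cyp2e1 (-0.25) not called. Without young mice 1184, 1186 and 1188, Alb (0.23, edgeR adjusted p = 0.167) and Hnf4a (-0.29, edgeR adjusted p = 0.0726) were not called and Cyp2e1 was (-0.43, edgeR adjusted p = 0.0329). Hnf4a also lost its call without mice 1181 and 1187 (-0.21, edgeR adjusted p = 0.0978). Member results that rest on these libraries are given with and without them, and so are the counts of called genes in the lists of pathway genes.

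Transcripts of 9 of the 10 GBP members were higher in old hepatocyte preparations and none was lower. The test was edgeR's quasi-likelihood test with cull day as a covariate, and a gene was called at a Benjamini-Hochberg adjusted p under 0.05 over all genes tested. By the same rule 16.3% of the genes tested were called higher and 14.5% lower, or 30.9% in either direction. The median log2 fold change was 1.24 over the 10 members and -0.003 over all genes. Without mouse 1187 the median of the members was 0.74, and without mice 1181 and 1187 it was 0.48. Gbp11 was the member that did not pass. The highest levels belonged to a few old mice. The summed level of the 10 members was 328 CPM in mouse 1187, 163 CPM in mouse 1181 and 98.1 CPM in mouse 1240. The other 6 old mice had 40.7 to 67.1 CPM and the young mice 33.5 to 60.1 CPM, so these ranges overlapped.

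**Figure D1:**
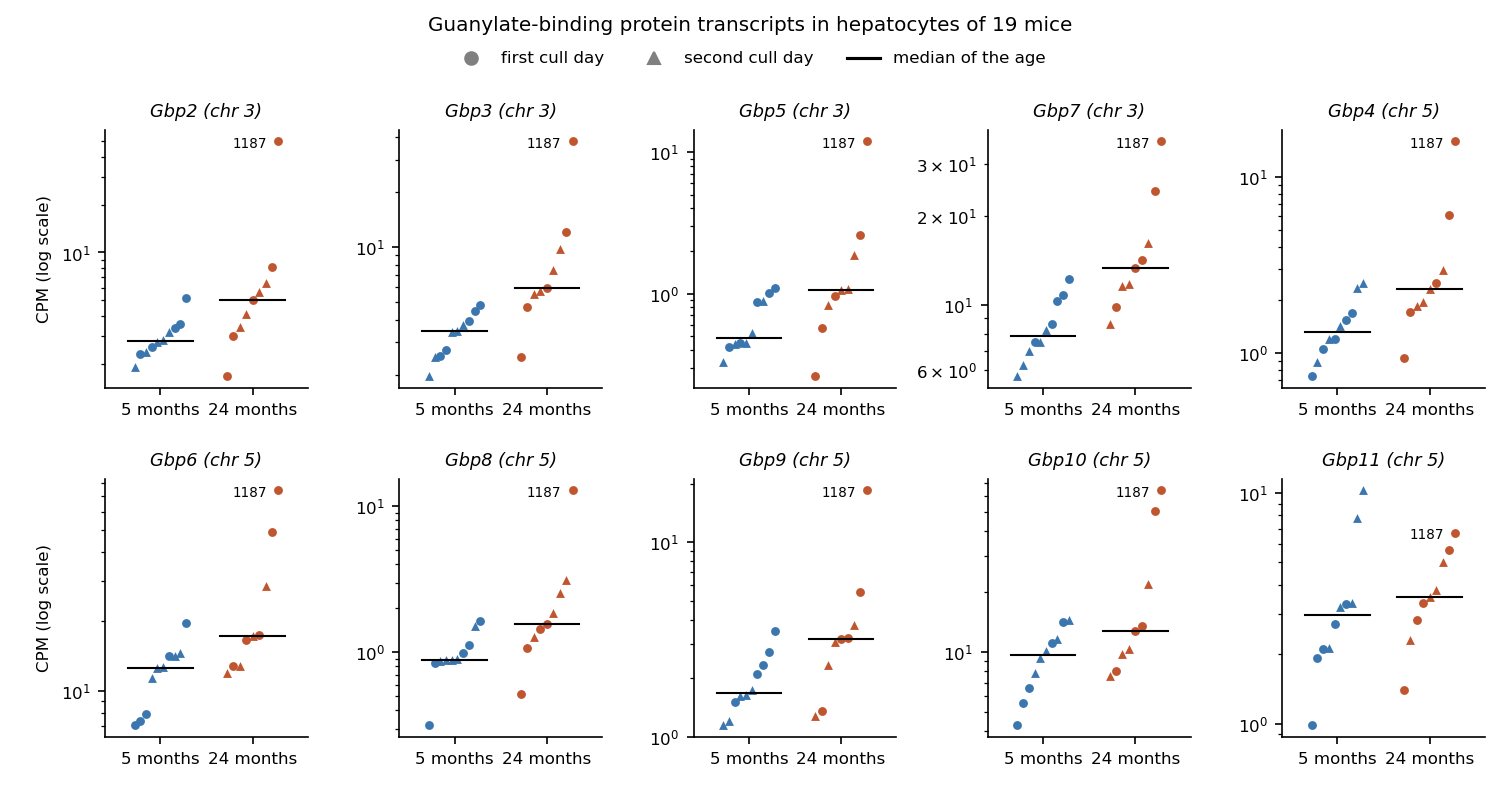
Level of each member in each of the 19 mice, in CPM on a log axis, by age, with points sorted by level within an age. Circles are the first cull day, triangles the second, and lines are medians of the 10 young and 9 old mice. Mouse 1187, marked, is the highest old mouse in all 10 panels, and Gbp11 is the panel in which no old mouse lies above all young mice.

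Among the chromosome 3 members, Gbp7 and Gbp3 had the most regular difference. Gbp7, which has been linked to the assembly of the phagocyte oxidase on vacuoles, had 5.73, 7.86 and 12.2 CPM as the lowest, median and highest young values and 8.60, 13.3 and 35.8 CPM in old mice. All 9 old mice lay above the young median and 5 of them above all young mice. Its log2 fold change was 0.90 (SE 0.195, edgeR adjusted p = 0.00287), the smallest p of the family. Gbp3, one of the members that gather on Toxoplasma vacuoles, had 1.96, 3.45 and 4.83 CPM in young mice and 2.49, 6.00 and 37.8 CPM in old mice. Of the 9 old mice, 7 exceeded every young mouse, the highest number for any member, while mouse 1183 lay within the young range. The log2 fold change of Gbp3 was 1.53 (SE 0.373, edgeR adjusted p = 0.00583).

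Gbp2 and Gbp5 depended more on mouse 1187. Gbp2, a prenylated member needed in mice for the control of Toxoplasma, had 1.90, 2.77 and 5.16 CPM as the lowest, median and highest young values and 1.66, 5.01 and 50.0 CPM in old mice. The lowest value of either age was in an old mouse, 1183, and 4 old mice exceeded all young mice. Its log2 fold change was 1.52 (SE 0.484, edgeR adjusted p = 0.0241). Mouse 1187 held 57.2% of the summed old CPM of Gbp2, and the old mean of 9.71 ± 15.2 CPM (SD, n = 9) was 4.67 ± 2.07 CPM without it (SD, n = 8), against 2.99 ± 0.916 CPM in young mice (SD, n = 10). Gbp5, a prenylated member linked to the NLRP3 inflammasome, was the least abundant, at 0.330, 0.486 and 1.10 CPM in young mice and 0.260, 1.05 and 11.9 CPM in old mice. Only 3 old mice exceeded all young mice, and the young counts behind these values were 5.5 to 20.5 per library. Gbp5 had the largest log2 fold change of the family, 1.70 (SE 0.537, edgeR adjusted p = 0.0231), and mouse 1187 held 56.3% of its summed old CPM. The neighbouring gene Gbp2b did not pass (log2 fold change 0.84, SE 0.374, edgeR adjusted p = 0.0916). Its log2 fold change was 0.47 without mouse 1187 and 0.19 without mice 1181 and 1187.

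On chromosome 5, the near-identical Gbp6 and Gbp10 had the highest levels per kilobase of exon and differed by age to a similar degree. Gbp6 had 7.05, 12.6 and 19.6 CPM as the lowest, median and highest young values and 11.9, 17.2 and 74.5 CPM in old mice. Gbp10 had 4.29, 9.69 and 14.5 CPM in young mice and 7.62, 12.7 and 64.2 CPM in old mice. The same 3 old mice, 1187, 1181 and 1240, were the highest for both genes, and for both they were the only old mice above all young mice. The log2 fold change was 1.06 for Gbp6 (SE 0.338, edgeR adjusted p = 0.0237). For Gbp10 it was 1.10 (SE 0.410, edgeR adjusted p = 0.0486), close to the threshold. The ratio of Gbp6 to Gbp10, per kilobase of exon, had a median of 1.08 in young and 1.07 in old mice (ranges 0.823 to 1.40 and 0.794 to 1.36). Young mice 1184, 1186 and 1188 were the lowest 3 young mice for both genes, at 7.05 to 7.90 CPM of Gbp6 against 11.3 to 19.6 CPM in the other young mice. For Gbp10 they had 4.29 to 6.58 CPM against 7.82 to 14.5 CPM.

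Gbp4, Gbp8 and Gbp9 were scarcer. Gbp8 had 0.316, 0.889 and 1.64 CPM as the lowest, median and highest young values and 0.520, 1.56 and 12.8 CPM in old mice. Its log2 fold change was 1.50 (SE 0.480, edgeR adjusted p = 0.0239), with 4 old mice above all young mice. Mouse 1187 was 8.56-fold above the median of the other old mice for Gbp8. Gbp4 had 0.737, 1.32 and 2.50 CPM in young mice and 0.935, 2.32 and 15.8 CPM in old mice, and its log2 fold change was 1.35 (SE 0.454, edgeR adjusted p = 0.0311). Again 4 old mice lay above all young mice. Gbp9, another member seen on Toxoplasma vacuoles, had 1.15, 1.68 and 3.50 CPM in young mice and 1.29, 3.16 and 18.5 CPM in old mice. The log2 fold change of Gbp9 was 1.13 (SE 0.365, edgeR adjusted p = 0.0248), with 3 old mice above all young mice. Unlike Gbp6 and Gbp10, Gbp9 was higher in young mice 1184, 1186 and 1188 (2.34 to 3.50 CPM) than in every other young mouse (1.15 to 2.11 CPM).

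Gbp11, the transcribed pseudogene, did not follow the rest. It had 0.984, 2.96 and 10.3 CPM as the lowest, median and highest young values and 1.39, 3.55 and 6.72 CPM in old mice. The highest values of all belonged to 2 young mice of the second cull day, 1235 (10.3 CPM) and 1239 (7.77 CPM), and no old mouse exceeded all young mice. The log2 fold change was 0.19 (SE 0.361, edgeR adjusted p = 0.710). Mouse 1187 was still the highest old mouse, at 1.95-fold the median of the other old mice, the smallest such ratio of any member.

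Per kilobase of exon, the order of the members was the same at both ages. From highest to lowest median it ran Gbp6, Gbp10, Gbp7, Gbp3, Gbp2, Gbp11, Gbp9, Gbp8, Gbp4 and Gbp5. In young mice the medians fell from 2.93 CPM per kilobase for Gbp6 to 0.162 for Gbp5, and in old mice from 4.00 to 0.351. The ranges of each pair of neighbours in this order overlapped at both ages. Shared sequence makes the place of Gbp6 and Gbp10 relative to each other uncertain.

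The calls depended on mouse 1187. It was the highest old mouse for all 10 members, mouse 1181 was the next highest for 8 of them, and mouse 1183 was the lowest for 5. Without mouse 1187, 3 members were called, at a background of 12.4% of genes called higher: Gbp7 (log2 fold change 0.71, edgeR adjusted p = 0.00317), Gbp3 (1.00, edgeR adjusted p = 0.00597) and Gbp6 (0.76, edgeR adjusted p = 0.0460). The other 6 members that had passed kept the direction at log2 fold changes of 0.62 for Gbp9 to 0.84 for Gbp5, and Gbp11 was at 0.00. Other single mice decided calls near the threshold. Gbp10 lost its call in 11 of the 19 fits that leave out 1 mouse (edgeR adjusted p 0.0295 to 0.0998 over the 19), namely those without old mouse 1181, 1187 or 1240 or young mouse 1180, 1182, 1184, 1186, 1188, 1237, 1239 or 1244. Gbp4 lost it without 1187 and also without young mouse 1180, 1184, 1186 or 1188 (edgeR adjusted p 0.0510 to 0.0614), and Gbp6 without old mouse 1240 (edgeR adjusted p = 0.0514). Without mice 1181 and 1187 together, 2 members were called, Gbp3 (0.81, edgeR adjusted p = 0.0186) and Gbp7 (0.59, edgeR adjusted p = 0.00750), where 11% of genes were called higher. Leaving out young mice 1184, 1186 and 1188 also left Gbp3 (1.52) and Gbp7 (0.84) as the members called, where 14.6% of genes were called higher. In that fit the log2 fold changes of Gbp6 (0.66) and Gbp10 (0.61) were smaller than with all mice. Those of Gbp2 (1.27), Gbp4 (1.06), Gbp5 (1.58), Gbp8 (1.62) and Gbp9 (1.20) stayed large with wider SEs, of 0.472 for Gbp9 to 0.684 for Gbp5, and did not pass. An exact two-sided permutation test of log2 CPM, with all 31752 relabellings of mice inside their cull day, called the same 2 members (adjusted p = 0.0129 for Gbp3 and 0.00450 for Gbp7), where 14.7% of genes were called higher. With limma-voom and sample weights 4 members passed, Gbp3, Gbp6, Gbp7 and Gbp8, where 16.9% of genes were called higher. That test gave a median log2 fold change of 0.75 over the members, with 0.74 for Gbp2 and Gbp4 and 0.89 for Gbp5.

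**Figure D2:**
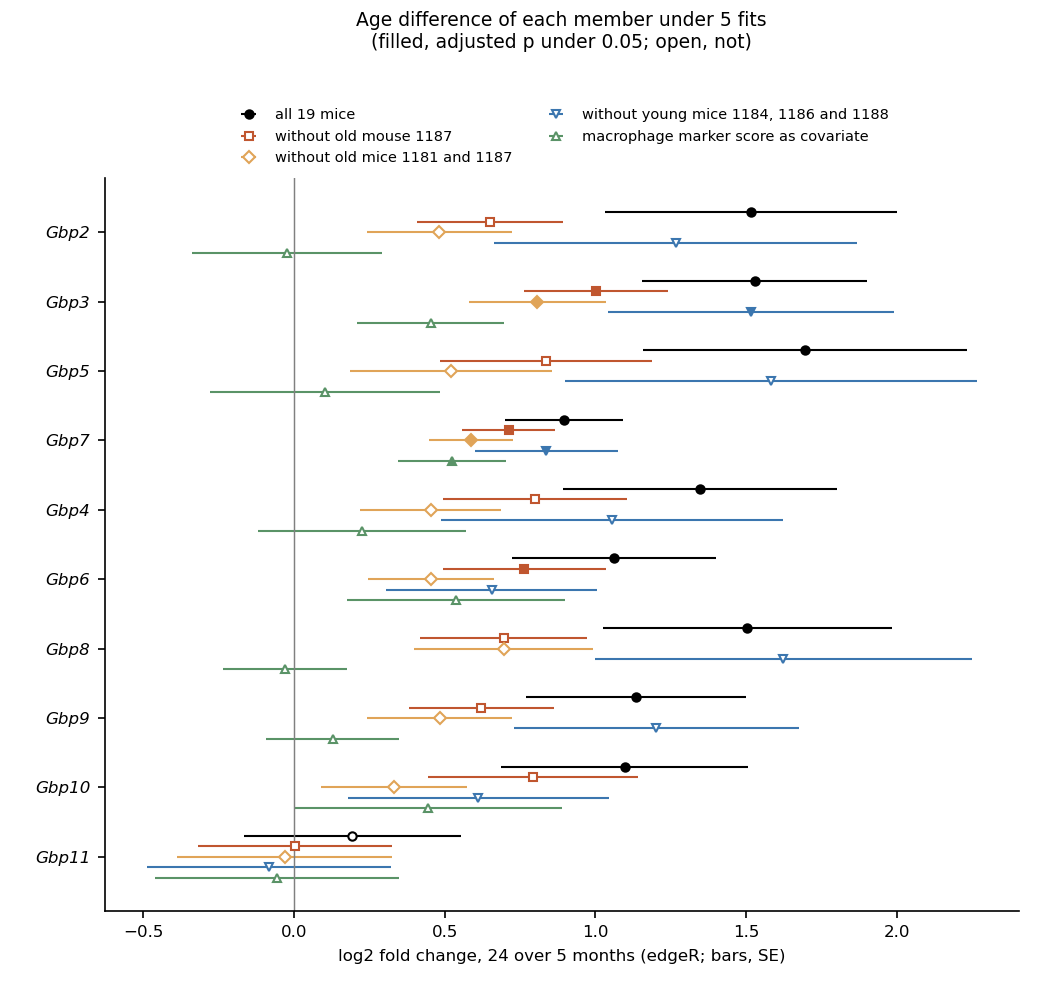
Log2 fold change of each member (24 over 5 months, edgeR) with its SE, for all 19 mice, without mouse 1187, without mice 1181 and 1187, without 3 young mice, and with the macrophage marker score as a covariate. Filled symbols have an adjusted p under 0.05. Gbp7 is filled in all 5 fits and Gbp3 in 4 of them, while the log2 fold change of Gbp2 falls from 1.52 to -0.024 with the macrophage score in the model.

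Both cull days held both ages, so each day gave its own comparison. On the first day, which held mice 1181, 1183 and 1187, values spread most. On that day alone the log2 fold changes ran from 0.85 for Gbp11 to 2.11 for Gbp4. None of the 10 members passed in edgeR (adjusted p 0.0941 to 0.220), with 9 at an unadjusted p under 0.05, where 1.88% of genes were called higher. On the second day alone 5 members were called, at a background of 12.2%: Gbp3 (1.24), Gbp5 (1.18), Gbp8 (1.12), Gbp2 (0.91) and Gbp7 (0.80). Gbp10 was at 0.22 and Gbp11 at -0.53 on that day. The difference between the days was tested by an interaction term in edgeR. No gene passed (0 of 12269, with 799 at an unadjusted p under 0.05), and the adjusted p of the members was 0.743 to 0.965. Gbp10 and Gbp11 had the smallest unadjusted p, with second-day minus first-day differences of -1.62 and -1.40 on the log2 scale.

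Transcripts of several other liver cell types were higher in old mice in the same preparations. All 12 macrophage markers were called higher in old mice by edgeR, against 16.3% of all genes, and their summed level was 100 to 486 CPM in young and 68.0 to 3313 CPM in old mice. Without mouse 1187 the highest old sum was 807 CPM and 2 of 12 were called (12.4% of all genes), and without mice 1181 and 1187 it was 1 of 12 (11% of all genes), both close to the share over all genes. The median log2 fold change of the 12 was 1.66 with all mice and 0.86 and 0.80 in these fits. Without young mice 1184, 1186 and 1188, 11 of 12 were called (14.6% of all genes), with a median of 1.99. Endothelial markers were higher for 8 of 12 (182 to 331 CPM in young, 190 to 610 CPM in old mice) and stellate cell markers for 10 of 10 (40.5 to 110 CPM and 103 to 393 CPM). Without mouse 1187 these counts were 7 of 12 and 7 of 10, against 12.4% of all genes, and the highest old sums were 525 and 196 CPM. Without mice 1181 and 1187 the counts were 5 of 12 and 7 of 10 (11% of all genes). Without young mice 1184, 1186 and 1188 they were 8 of 12 and 10 of 10 (14.6%). Lymphocyte, neutrophil and dendritic cell markers were close to the detection limit, since only 1 of 11 T and NK cell markers in the table, 1 of 6 B and plasma cell, 1 of 6 neutrophil and 2 of 6 dendritic cell markers had enough counts to be tested. Of these, Jchain of plasma cells (log2 fold change 2.14), Csf3r of neutrophils (2.10) and Clec9a of dendritic cells (1.08) were called higher by edgeR, and Cd4 and Zbtb46 did not pass. The median of Jchain was 0.328 CPM in young and 1.25 CPM in old mice, and that of Csf3r 0.386 and 1.13 CPM. Such markers could pass the count filter largely through old libraries, so calling them higher in old mice was favoured in advance. Without mouse 1187, Jchain (1.68) and Clec9a (0.72) were still called and Csf3r was not (1.29, edgeR adjusted p = 0.0505). The summed T and NK cell markers reached 35.9 CPM in old mice and 3.27 CPM in young mice, and without mouse 1187 the highest old sum was 3.53 CPM. Of 5 cholangiocyte markers 2 were tested and neither was called, and their summed level was 5.44 to 170 CPM in young and 7.96 to 63.5 CPM in old mice. Krt19 (3.30 CPM) and Epcam (2.75 CPM), both too low to test, had their highest values in young mice, against at most 0.292 and 0.262 CPM in old mice. Without young mice 1184, 1186 and 1188 the highest young sum was 13.2 CPM and Sox9 was called higher in old mice (0.94, edgeR adjusted p = 0.00350). No marker was at 0 in every library. The old mouse with the highest macrophage score, 1187, was the highest old mouse for all 10 GBP members, and the one with the lowest score, 1183, was the lowest for 5. Between these extremes the order differed. Mice 1242 and 1236 had the next highest scores (5.70 and 5.00) and summed GBP levels of 58.5 and 49.3 CPM, and 1236 was the lowest old mouse for 3 members. Mouse 1181, with a score of 4.96, had 163 CPM.

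With the macrophage score in the edgeR model, Gbp7 was the 1 member still called (log2 fold change 0.53, edgeR adjusted p = 0.0497), where 8.8% of genes were called higher. Gbp6 was then at 0.54, Gbp3 at 0.45 and Gbp10 at 0.45, without passing. The values of Gbp2 and Gbp8 were -0.024 and -0.030 in that fit. With a broader score over 39 markers of 7 non-hepatocyte cell types, 0 of 10 members passed in edgeR and 0 had an unadjusted p under 0.05, where 6.09% of genes were called higher. Gbp7 (0.42), Gbp6 (0.40), Gbp10 (0.30) and Gbp3 (0.18) kept a positive value, and the other 6 members were at -0.41 for Gbp8 to -0.065 for Gbp4. These scores themselves differed between the ages, so a fit with a score cannot tell apart the share of a difference that belongs to age from the share that belongs to cell content.

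The members differed in how closely they followed the macrophage score from mouse to mouse. For each of the 10 members the residuals of log2 CPM from age by cull day means were compared with those of the score over 19 mice, and p-values came from 100000 permutations. The residuals were permuted over all mice, without regard to age or day. Their spread differed between these groups, so these p-values can be too small. Gbp8 followed the score most closely (Pearson r = 0.942, permutation p = 1e-05, the smallest the permutations can give; Spearman rho = 0.760, permutation p = 0.00025, adjusted over the 10 relations 0.0025). Without the 2 mice farthest from the median score its r was 0.842, and it was 0.957 on the first and 0.789 on the second cull day. In young mice alone the r of Gbp8 was 0.896. Gbp9 came next (r = 0.866, permutation p = 7e-05; rho = 0.711, permutation p = 0.00095), with an r of 0.528 without the 2 farthest mice and of 0.939 and 0.356 on the 2 days.

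Gbp6 and Gbp10 followed the score less evenly. Gbp6 had an r of 0.434 (permutation p = 0.0632) and a rho of 0.109 (permutation p = 0.656). Its r turned to -0.293 without the 2 farthest mice and was 0.502 and -0.106 on the 2 days. Within each age, the r of Gbp6 was -0.609 in the 10 young and 0.751 in the 9 old mice, and that of Gbp10 was -0.542 and 0.765, a difference between the ages that was not tested. Gbp10 had an r of 0.469 (permutation p = 0.0418, adjusted 0.0523) and a rho of 0.119 (permutation p = 0.626). For Gbp7 the r of 0.627 (permutation p = 0.00626, adjusted 0.00894) rested on the 2 farthest mice, since it was -0.022 without them, and it was -0.045 in young and 0.786 in old mice. Gbp2, Gbp3, Gbp4 and Gbp5 had r between 0.793 and 0.831 with rho between 0.491 and 0.581, and r fell to between 0.275 and 0.442 without the 2 farthest mice. Gbp11 had the lowest r, 0.244 (permutation p = 0.320).

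**Figure D3:**
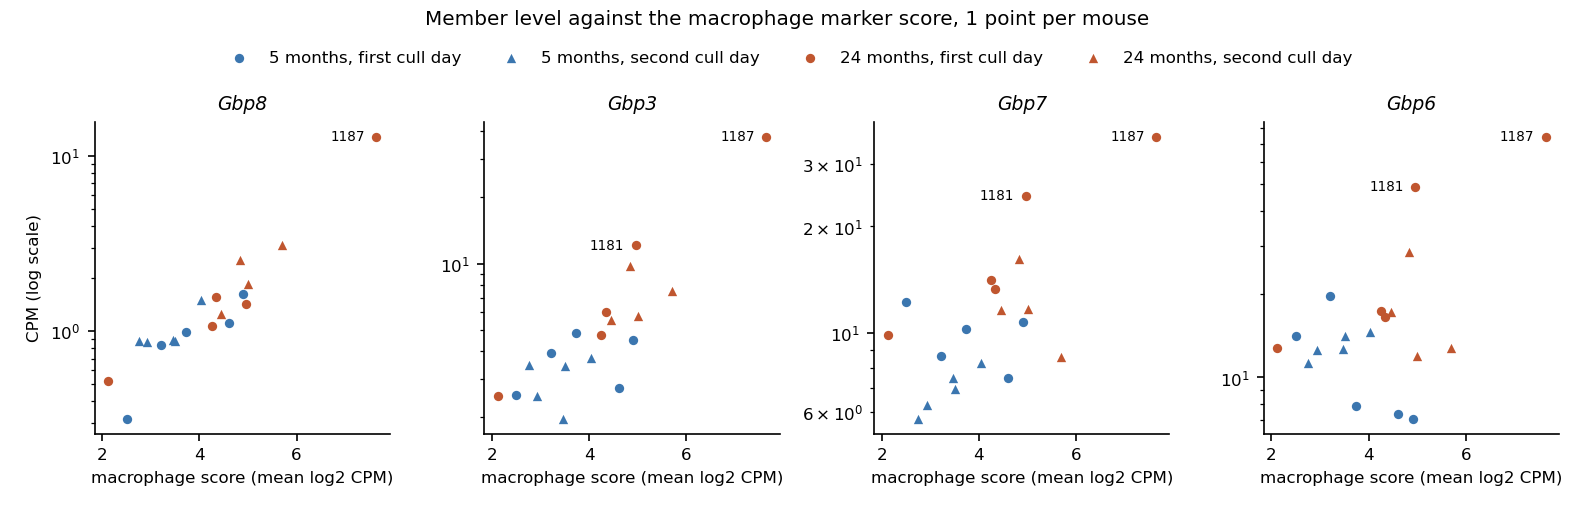
CPM (log axis) of Gbp8, Gbp3, Gbp7 and Gbp6 against the macrophage marker score (mean log2 CPM of 12 markers), 1 point per mouse, coloured by age and shaped by cull day. Gbp8 lies along a line in both ages, whereas for Gbp6 old mouse 1181 lies far above mice of a like score and 2 of the 3 lowest young mice have the highest young scores.

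Between members, levels varied together across the 19 mice on both chromosomes, in part through the 2 mice farthest from the median. By rho, members varied together less in young mice alone, a difference that was not tested. The 2 farthest mice were chosen for each pair by the residuals of its lower-numbered member, so they can differ between pairs. Over the 19 mice, again as residuals, rho ran from 0.332 to 0.849 for the 6 pairs within chromosome 3. It ran from 0.244 to 0.963 for the 10 pairs within chromosome 5 that leave out Gbp11, and from 0.300 to 0.904 for the 20 pairs that span the chromosomes. The 9 pairs with Gbp11 had rho of 0.07 to 0.446. With permutation p-values adjusted over the 45 pairs, 5 of 6, 7 of 10, 18 of 20 and 0 of 9 of these pairs passed. The permutations had the same limit as those for the macrophage score. The closest pair was Gbp6 with Gbp10 (rho = 0.963, r = 0.972, permutation p = 1e-05 for each), which share much of their sequence. Gbp3 with Gbp4, on different chromosomes, followed (rho = 0.904, r = 0.963, permutation p = 1e-05 for each, and r = 0.891 without the 2 mice farthest from the median). Without those 2 mice the median r fell from 0.858 to 0.533 within chromosome 3, from 0.772 to 0.463 within chromosome 5 and from 0.808 to 0.546 across the chromosomes. The r of Gbp3 with Gbp5 was then 0.772 (0.938 over all mice), of Gbp4 with Gbp5 0.769 (0.925) and of Gbp7 with Gbp10 0.708 (0.842). It turned from 0.473 to -0.196 for Gbp6 with Gbp8 and from 0.601 to -0.073 for Gbp7 with Gbp8, and fell from 0.707 to 0.123 for Gbp2 with Gbp7. In the 10 young mice alone the median rho was 0.0909 within each chromosome and 0.273 across them. Without the 2 farthest young mice of each pair, the young median r rose from 0.207 to 0.580 within chromosome 3. It went from 0.121 to 0.147 within chromosome 5 and from 0.268 to 0.250 across the chromosomes. In young mice Gbp6 with Gbp10 was the 1 pair of 45 that passed (rho = 0.939, permutation p = 0.0002, adjusted 0.009), and Gbp3 with Gbp4 had a rho of 0.709 (permutation p = 0.0267, adjusted 0.401).

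**Figure D4:**
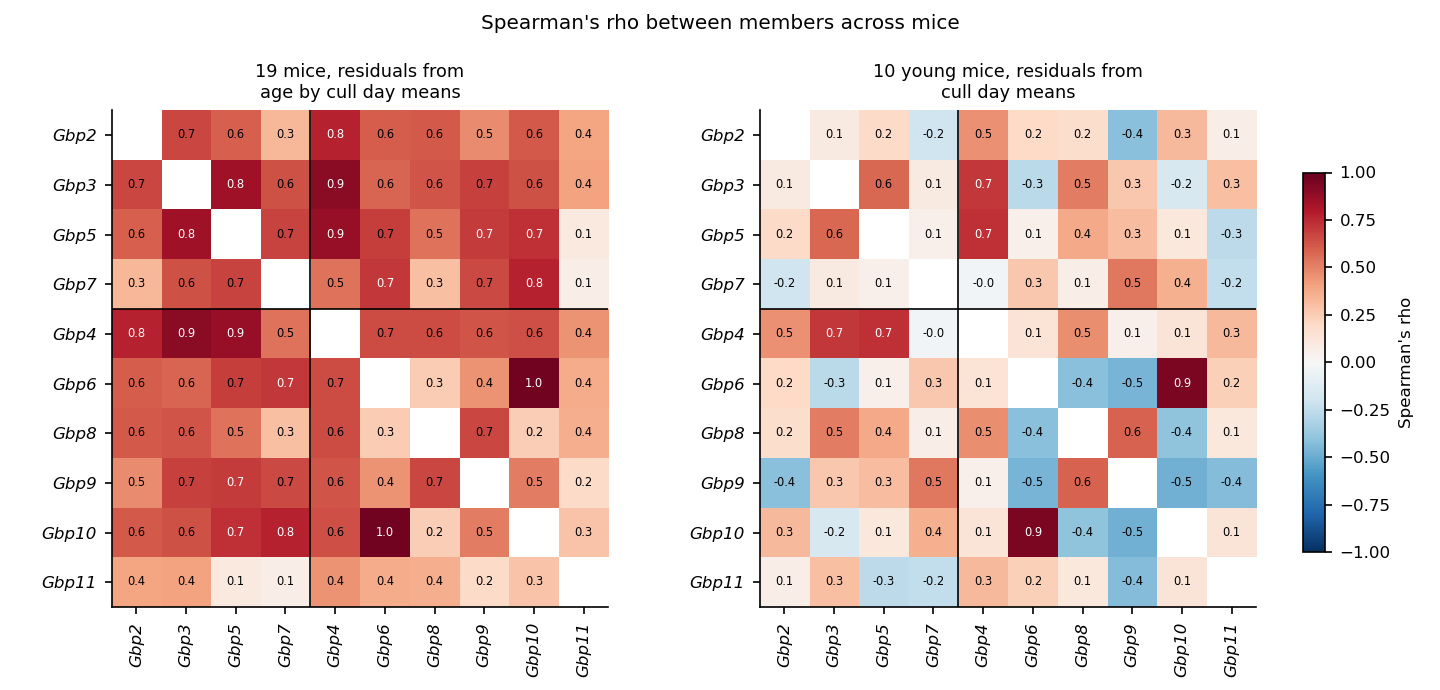
Spearman's rho for each of the 45 pairs of members, as residuals over 19 mice from age by cull day means (left) and over the 10 young mice from cull day means (right). Black lines part chromosome 3 from chromosome 5. The coefficient is positive for every pair over 19 mice, whereas in young mice it ranges from -0.479 to 0.939 and the darkest cell is Gbp6 with Gbp10.

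The genes most alike the family over the 19 libraries, by Pearson r of residuals to the mean of the standardised members, were mostly other immune genes. The 10 most alike included Tgtp2 (0.962), Gm12250 (0.961), H2-DMb1 (0.952), Tgtp1 (0.945), H2-Ab1 (0.939), Ciita (0.939), H2-Aa (0.937), Psap (0.936) and H2-Eb1 (0.935). Tgtp1, Tgtp2 and Gm12250 encode immunity-related GTPases, Ciita encodes the transactivator of MHC class II genes, and the H2 genes named encode class II molecules or their peptide loader. Without mouse 1187, 8 of these 10 stayed among the 10 most alike, led by Tgtp1 (0.922) and Tgtp2 (0.919).

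Single members differed in their closest genes. Gbp6 and Gbp10 were both most like Igtp, another immunity-related GTPase (r = 0.951 and 0.939, and 0.927 and 0.912 without mouse 1187). Gbp8 was most like Pkm, a glycolytic enzyme abundant outside hepatocytes (0.976), Wfdc17 (0.976) and Vav1, a signalling protein of blood cells (0.974). Gbp9 was most like Ly9 (0.946), a receptor of immune cells, Flna (0.939) and Slc8a1 (0.932). Gbp2 was most like Cd74 (0.967), the class II invariant chain, H2-Ab1 (0.956) and H2-DMb1 (0.953). Gbp3 was most like Ly6a (0.952), Gm12250 (0.945) and H2-DMa (0.943). Gbp4 was most like Gm12250 (0.951), H2-DMa (0.948) and Itgb7 (0.943). The 3 genes most like Gbp5 included H2-Ab1 (0.931) and Ifit3b (0.923). For Gbp7 they included Gnpda1 (0.900) and Ifit1 (0.894). For Gbp11 they were Cant1 (0.853), Cdc20 (0.812) and Ccnb1 (0.791), the last 2 genes of the cell cycle. Without mouse 1187 the 3 closest genes changed in part for every member. Those named here that left the closest 3 were H2-DMb1 for Gbp2, H2-DMa for Gbp3, Itgb7 for Gbp4, Ifit3b for Gbp5, Gnpda1 and Ifit1 for Gbp7, Wfdc17 and Vav1 for Gbp8, Flna and Slc8a1 for Gbp9, and Ccnb1 for Gbp11. These coefficients describe likeness over libraries that share age, day and cell content.

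Upstream of the GBP genes, the ligands were at or near 0 and 2 of 7 receptor and kinase genes tested were higher in old mice, against 16.3% of all genes. Ifng, the gene of interferon gamma, had no count in any young library and at most 2 counts in old libraries, 3 of which had any. Ifnb1 had no count in any library. Ifngr1, a chain of the interferon gamma receptor, rose by 0.67 on the log2 scale (SE 0.153, edgeR adjusted p = 0.00399), from a young range of 9.80 to 15.7 CPM to an old range of 14.5 to 41.0 CPM. Ifnar1, a chain of the type I receptor, rose by 0.18 on the log2 scale (edgeR adjusted p = 0.0251), and Ifnar2 did not pass (0.13, edgeR adjusted p = 0.0874). Ifngr1 and Ifnar1 were also called without mouse 1187 and without young mice 1184, 1186 and 1188, and Ifngr1 without mice 1181 and 1187, where Ifnar1 narrowly missed the threshold at a similar value (0.19, edgeR adjusted p = 0.0512).

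Of 8 transcription factors of the pathway that were tested, 4 were higher and none lower, against 16.3% and 14.5% of all genes. The count was 3 without mouse 1187 (12.4% of all genes called higher), 3 without mice 1181 and 1187 (11%), and 5 without young mice 1184, 1186 and 1188 (14.6%). Irf7, which drives interferon responses, rose most (log2 fold change 1.20, SE 0.252, edgeR adjusted p = 0.00227), with 8 of 9 old mice above all young mice. Nlrc5, a transactivator of MHC class I genes, rose by 0.64 (edgeR adjusted p = 0.00345), and Irf9, a DNA-binding subunit of the complex that type I interferons activate, by 0.34 (edgeR adjusted p = 0.00997). Irf1, a factor known for direct control of GBP genes, had 15.4, 23.3 and 43.7 CPM as the lowest, median and highest young values and 26.5, 34.0 and 72.4 CPM in old mice. It did not pass (log2 fold change 0.49, SE 0.195, edgeR adjusted p = 0.0633). Of 4 negative regulators tested, 2 were higher (16.3% of all genes), Usp18 (0.99, edgeR adjusted p = 0.00625), which dampens type I receptor signals, and Pias1 (0.28, edgeR adjusted p = 0.0250), an inhibitor of cytokine signalling. Ptpn2, a phosphatase of the same pathway, did not pass (0.12, edgeR adjusted p = 0.474). Without mouse 1187, Usp18 was still called (0.74, edgeR adjusted p = 0.00959) and Pias1 was not (0.26, edgeR adjusted p = 0.0502). Both were called without mice 1181 and 1187, and Usp18 and Ptpn2 without young mice 1184, 1186 and 1188, where Pias1 was again at 0.26 (edgeR adjusted p = 0.0739). Leaving out young mice 1184, 1186 and 1188 brought Irf1 past the threshold (0.72, edgeR adjusted p = 0.0264).

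Among the partner immunity-related GTPases, 5 of 8 tested were higher and 1 was lower, against 16.3% and 14.5% of all genes. Tgtp2 rose by 1.52 on the log2 scale (SE 0.479, edgeR adjusted p = 0.0224) and Igtp by 0.92 (SE 0.271, edgeR adjusted p = 0.0165). Gm4951 decreased by 0.33 on the log2 scale (SE 0.0759, edgeR adjusted p = 0.00390). The median log2 fold change of the 8 genes was 0.60. These calls depended on mouse 1187, since without it only Igtp of the 5 was still called (0.71, edgeR adjusted p = 0.0317) and Tgtp2 was at 0.85 (edgeR adjusted p = 0.0683). Without mice 1181 and 1187 none of the 8 was called higher in edgeR, and without young mice 1184, 1186 and 1188 only Ifi47 was (0.90). The shares of all genes called higher in these 3 fits were 12.4%, 11% and 14.6%, so a count of 1 of 8 was near the background. Without those 3 young mice, Tgtp2 was at 1.22 (SE 0.576), Tgtp1 at 1.14, Igtp at 0.63 and Irgm2 at 0.44, without passing. Gm4951 stayed lower in all 3 of these fits. Of 6 inflammasome genes tested, 2 were higher (16.3% of all genes), Casp1 (1.19, edgeR adjusted p = 0.0296) and Il1b (1.57, edgeR adjusted p = 0.0152), both at levels under 3 CPM in every young mouse. Il18 did not pass (0.44, edgeR adjusted p = 0.0565). Without mouse 1187, Casp1 was at 0.54 (edgeR adjusted p = 0.0959) and Il1b at 1.08 (edgeR adjusted p = 0.0455). Neither was called without mice 1181 and 1187 (0.53 and 0.94). Without young mice 1184, 1186 and 1188, Casp1 kept its log2 fold change of 1.19 without passing (edgeR adjusted p = 0.0833). Casp4 (2.08), Gsdmd (0.40), Nlrp3 (2.03) and Il1b (1.76) were called higher in that fit, 4 of 7 genes tested, where 14.6% of all genes were.

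The genes of the ATG8 conjugation machinery, which is needed to place GBPs on vacuoles, went the other way. Of 9 tested, 5 were lower in old mice and none higher, against 14.5% of all genes called lower. Gabarapl2 fell from 64.9 to 83.6 CPM in young mice to 50.8 to 64.4 CPM in old mice (log2 fold change -0.30, SE 0.0479, edgeR adjusted p = 0.000304), so that the ages did not overlap. The same 5 genes were called lower without mouse 1187 (12.1% of all genes), 3 genes without mice 1181 and 1187 (9.33%), and 6 without young mice 1184, 1186 and 1188 (12.5%). Atg12 (-0.18) and Map1lc3b (-0.22) were the 2 that did not pass without mice 1181 and 1187, at values close to those with all mice (-0.20 and -0.24). The 6 included Atg3 and Gabarapl1 and left out Map1lc3b (-0.16). Atg7 decreased by 0.35 (SE 0.0593, edgeR adjusted p = 0.000427) and Atg5 by 0.28 (SE 0.0741, edgeR adjusted p = 0.0103). None of the 6 prenylation enzymes was called in edgeR, with 1 at an unadjusted p under 0.05, against 30.9% of all genes called in either direction. Those of smallest p were Rce1 (0.18, edgeR adjusted p = 0.0918), Pggt1b (-0.18, edgeR adjusted p = 0.358) and Icmt (-0.08, edgeR adjusted p = 0.460). Of 7 other large GTPases and atlastins, Mx1 (1.19, edgeR adjusted p = 0.0383) and Gvin1 (1.29, edgeR adjusted p = 0.0293), both interferon-induced, were higher (16.3% of all genes). Neither passed without mouse 1187 (0.63, edgeR adjusted p = 0.0906 for Mx1, and 0.95, edgeR adjusted p = 0.108 for Gvin1) or without mice 1181 and 1187. Without young mice 1184, 1186 and 1188, Gvin1 (2.04) and Mx2 (0.81) were the 2 genes called higher by edgeR. Atl2, an atlastin that shapes the endoplasmic reticulum, was lower (-0.39, edgeR adjusted p = 0.00134), also in these 3 fits.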

How the data were processed

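RNA was extracted with Trizol and chloroform and sequenced as stranded paired-end libraries, per the labels' protocols. The authors deposited 1 table of estimated counts per gene and its exon length, written by HOMER on mm10 over RefSeq exons without normalization, per the file headers. STAR and HOMER are named per the submitters' processing notes. Their versions, the strand setting and the handling of reads with several matches are not given in the sources used here, so overlapping and near-identical genes stay uncertain. Of the deposited values, 29.2% were not whole (steps of 0.5), and they were rounded before testing.

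Age was tested with edgeR 4.0.16 in R 4.3.3 (TMM scaling, filterByExpr with a minimum count of 10, cull day as a covariate, Benjamini-Hochberg adjustment over 12269 genes, threshold 0.05). The design had been written for plain counts and was kept. SEs were derived from the log2 fold change and its F statistic. CPM uses TMM-scaled totals of the tested genes, and log2 CPM a prior count of 2. Ages were compared over mice, 10 young and 9 old. The edgeR script was tested on simulated data. Promoters came from RefSeq, and exon numbers, overlaps and coding identity from GENCODE M21. Correlations used 100000 permutations. limma 3.58.1, DESeq2 1.42.0, Python 3.11.15, scipy 1.17.1, pandas 2.3.3 and Biopython 1.88 were also used.

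The members, the lists of pathway genes and the marker lists were chosen with earlier results of these data known. Every member is described. From each pathway list the 3 genes with the smallest p are named, and Irf1 and Ifng always. A gene that this rule also names is not reported here. The 10 genes most alike the family, and 3 for each member, are named by Pearson r of residuals. Alternatives were other scaling, filters and tests, each cull day, marker scores as covariates, summed clusters, and leaving out mice. The fits without mice 1181 and 1187, with the macrophage score but without mouse 1187, by exact permutation, with the totals in the column names, and of the gene lists without the same mice were added after seeing the data.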

Additional observations from a re-analysis of the deposited data

Results flagged for a closer look

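For 37 genes named or followed here, each age was examined for a library whose gap to the nearest other library was a large share of the range of its group. Of 74 such groups, 19 had one beyond the 95% critical value of Dixon's test, where chance gives about 1 in 20. These groups share the same mice and many of the genes vary together, so that the 19 are not independent and their number cannot be read against that rate. Old mouse 1187 was that library in 15 of them. For GBP members its gap was 0.866 of the range of old mice for Gbp2 (50.0 CPM), 0.798 for Gbp5, 0.789 for Gbp8, 0.753 for Gbp9, 0.728 for Gbp3 and 0.654 for Gbp4. Gbp6, Gbp7, Gbp10 and Gbp11 had no such gap. For pathway genes the gap of mouse 1187 was 0.830 for Casp1, 0.824 for Irf7, 0.732 for Ifngr1, 0.732 for Tgtp2, 0.726 for Usp18, 0.720 for Mx1, 0.650 for Gvin1, 0.616 for Irf1 and 0.544 for Il18. Young mouse 1182 stood above the other young mice for Gbp2 (0.493, at 5.16 CPM), Igtp (0.489) and Tgtp2 (0.644). Young mouse 1186 stood above them for Ptpn2 (0.587).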

How the results depend on the processing

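The count of 9 members called higher was 8 or 9 with DESeq2, DESeq2 size factors, library totals, the totals in the column names, no filter, a minimum mean of 1 CPM, or no cull day term, with 13.3% to 17.1% of genes called higher. It was 4 with limma-voom and sample weights, 0 on the first and 5 on the second cull day alone, 0 with the other-cell score, 1 with the macrophage score (also 1, at 11.9% of genes called higher, when mouse 1187 was left out too), 2 without young mice 1184, 1186 and 1188, 2 without mice 1181 and 1187, and 2 by exact permutation. Leaving out 1 mouse at a time gave 3 to 9 members, with 3 only without mouse 1187 (12.4% of genes called higher, and 14.1% to 16.9% in the other 18 such fits). No member was called lower in any of these fits. The count of 3785 genes called became 450 on the first and 2389 on the second cull day, 1463 with the other-cell score, 2104 with the macrophage score and 2509 without mice 1181 and 1187. With the other-cell score the log2 fold change turned to -0.37 for Gbp2, -0.065 for Gbp4, -0.24 for Gbp5, -0.41 for Gbp8, -0.16 for Gbp9 and -0.21 for Gbp11. With the macrophage score it turned to -0.024 for Gbp2, -0.030 for Gbp8 and -0.056 for Gbp11. Gbp11 was also at -0.057 with limma-voom, -0.53 on the second cull day, -0.083 without the 3 young mice and -0.031 without mice 1181 and 1187. The cause of these changes was not tested. Summing counts per cluster gave log2 fold changes of 1.23 on chromosome 3 (SE 0.303, edgeR adjusted p = 0.00624) and 1.03 on chromosome 5 (SE 0.349, edgeR adjusted p = 0.0321). The interaction gave 0 genes with library totals too (725 at an unadjusted p under 0.05). Of the 10 most alike genes, 5 stayed by Spearman's rho. No member failed the filter, so the test planned for such members was not run. No paired analysis was possible because the mice of the 2 ages share no numbers. Depth limits Gbp5, Gbp8 and Gbp4 most, whose young libraries held as few as 5.5, 6.5 and 13.5 counts.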

Other observations

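Several genes of the pathway lists had too few counts for the edgeR test over all 19 mice, and their levels are given without it. Nlrp3, an inflammasome sensor, had 0.109, 0.249 and 0.656 CPM as the lowest, median and highest young values and 0.0520, 0.721 and 4.63 CPM in old mice, with 6 of 9 old mice above all young mice. Nlrp3 passed the count filter once young mice 1184, 1186 and 1188 were left out, with a log2 fold change of 2.03 (edgeR adjusted p = 0.0429). It could pass largely through old libraries, where its counts were higher, so that call was favoured in advance. Aim2, a sensor of cytosolic DNA, had 0.0559, 0.222 and 0.656 CPM in young mice and 0.312, 0.618 and 4.45 CPM in old mice, with 4 old mice above all young mice. Pycard, the inflammasome adaptor, had 0.168, 0.389 and 0.658 CPM in young mice and 0.208, 0.512 and 4.36 CPM in old mice. The highest young count was 12 for each of these 3 genes. The highest old value of each was in mouse 1187. Batf2, an interferon-induced transcription factor, had at most 6 counts in young libraries and 46 in old ones.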
